A study of Bos taurus with 16 samples.

Results

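Solute carriers are the membrane proteins that move amino acids, sugars, nucleosides, metal ions, inorganic anions, fatty acids and organic acids across the plasma membrane and the membranes of organelles. Their expression was examined here in CD14+ cells that were isolated from 2 sites of pregnant cows, endometrium and blood. The members were the probes whose gene name, or the symbol in brackets in the description, starts with SLC and a number or with SLCO, leaving out SLC2A1, SLC2A3, SLC16A3, SLC6A8, SLC40A1 and SLC11A1. This gave 248 genes by 256 probes, of 21475 probes on the array. The brightest probe stood for each of the 8 genes with several probes. The 248 genes fall into 43 families, and 64 carried the symbol as gene name while 184 carried it in the description. By this rule 3 proteins that are not transporters, SLC2A4RG, SLC4A1AP and SLC9A3R1, were kept.

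The study compared cells of 4 cows (Bos taurus), estimated to be at day 164 (animal 1), 239 (animal 2), 242 (animal 3) and 248 (animal 4) of pregnancy. From each cow, CD14+ cells were sorted by flow cytometry from dispersed endometrium and from mononuclear cells of the blood. Sorted preparations were 90 to 95% pure for endometrium and 98 to 99% pure for blood, per the labels. RNA was amplified, and both tissues of a cow were hybridized together on 2 arrays with 2 dyes, giving 8 arrays and 8 samples for each tissue. The dyes were exchanged between the 2 arrays of animals 1, 2 and 4, whereas blood of animal 3 was labeled with Cy3 on both, so that a dye effect does not cancel in the ratios of animal 3. The groups thus differ in tissue, in the way the cells were released and in purity, and only 1 cow represents each day of pregnancy, so that day and cow cannot be told apart.

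Values are normalized log2 signals averaged over the arrays of a cow, and a log2 ratio is the signal in endometrium minus the signal in blood of the same cow. A spot that is not above background reads about as SLC7A11, the light chain of the cystine and glutamate exchanger, which was well above background in no channel and read from 5.91 to 6.07. The number of animals, 4, limits precision.

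The labeled cell type was compared with marker genes. CD14 itself read 12.17 in endometrium and 14.24 in blood of animal 1, but 6.41 and 6.30 in animal 2, 8.14 and 7.63 in animal 3 and 6.82 and 6.69 in animal 4. The 7 CD14+ myeloid markers averaged 12.59 and 12.58 in the tissues of animal 1 and 7.97 to 9.89 elsewhere. The 9 markers of natural killer and T cells were lowest in animal 1, at 8.19 in endometrium and 7.06 in blood, against 10.03 to 12.55 in the other animals. In animals 2 and 4 the CD14 signal thus lay close to the end of the scale in both tissues, and in animal 3 not far above it, although the cells were labeled as sorted CD14+ cells. Animal 1 stood apart from the other cows in both tissues, and the counts of members and of all probes at unadjusted p are also given without it. Between tissues, the mean level of the 8 epithelial markers ranged from 7.90 to 11.17 in endometrium and from 6.47 to 7.97 in blood, and that of the 9 trophoblast markers from 9.14 to 10.56 and from 6.52 to 7.28. The 7 stromal markers read 13.19 in endometrium of animal 1 and from 6.2 to 8.48 in that of the other cows. In blood they ranged from 6.12 to 7.80, highest in animal 1. TKDP1, of the trophoblast list, was the only one of these markers not well above background in any channel. The 10 tissue macrophage markers ranged from 8.73 to 13.24 in endometrium and from 7.48 to 9.99 in blood, and the 6 blood monocyte markers from 7.42 to 10.25 and from 8.41 to 13.42. The 3 B cell markers ranged from 8.76 to 11.19 in endometrium and from 9.90 to 12.49 in blood. Their median ratio was -1.60, and 1 of them was higher in blood at unadjusted p. Median ratios were 3.89 for trophoblast, 2.69 for tissue macrophage, 2.08 for stromal, 1.93 for epithelial and -0.90 for blood monocyte markers. At unadjusted p, 6 of 8, 8 of 10, 2 of 7 and 4 of 8 were higher in endometrium. For the monocyte markers, 1 of 6 was higher in blood. CD14+ myeloid markers gave 1.06 and natural killer and T cell markers 0.94, with 3 of 7 and 3 of 9 higher in endometrium. By the adjusted test described below, 5 trophoblast markers were called, against 11 of all 16653 probes. Whether these other cells had a part in the carrier signals was not tested, and in sorted bulk RNA fewer cells of a type and less RNA per cell cannot be told apart.

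As background, carriers in macrophages and monocytes supply amino acids for protein and nitric oxide synthesis, withdraw zinc and iron from microbes, clear nucleosides and peptides from lysosomes and exchange metabolites with mitochondria. The amino acid exchangers SLC7A5, SLC7A7, SLC7A8 and SLC7A11 work as pairs with the heavy chain SLC3A2. SLC39 proteins bring zinc into the cytoplasm and SLC30 proteins take it out. Members of the SLCO family carry large organic anions such as steroid sulfates, bile acids and prostaglandins.

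All 248 probes chosen were 60 bases long. Their median GC content was 45%, against 43.3% for all probes, and 15.3% held the polyadenylation signal AATAAA or ATTAAA against 15.5% of all probes, read on the probe strand only. At least 1 of the 3 frames of the probe strand held no stop codon in 83.5% of the members and 82.7% of all probes. The files do not place these probes on the genome, and no coordinates are given for them. The next probes are shown because their signals are described below for a carrier whose tissues did not overlap (SLC4A4), for one with another probe that can be set beside it (SLC37A3) and for one that the study names (SLC8A3). They are written 5′ to 3′ in lower case, each has a frame without a stop codon, and none holds either signal.
SLC4A4: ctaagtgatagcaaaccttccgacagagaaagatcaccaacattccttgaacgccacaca
SLC37A3: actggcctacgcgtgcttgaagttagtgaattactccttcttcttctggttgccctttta
SLC8A3: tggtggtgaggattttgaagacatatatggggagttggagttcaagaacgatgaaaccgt

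To determine which carriers could be measured, a member was called expressed in a tissue when at least 4 of its 8 channels were well above background. By this criterion 163 members were expressed in both tissues, 21 in endometrium only and 7 in blood only, so that 191 (77.0%) were tested against 77.5% of all probes. The same split was not counted over all probes. With no channel well above background in the other tissue required, 5 members were in endometrium only and 0 in blood only. Of the 16653 probes tested, 246 and 73 were so, and thus leaned the same way. Of the 57 not tested, 35 were well above background in no channel. These included the synaptic carriers SLC17A6, SLC17A8, SLC18A1, SLC32A1, SLC6A2 and SLC6A5, the kidney and inner ear carriers SLC12A1 and SLC26A5 and the erythrocyte anion exchanger SLC4A1. A total of 123 members were well above background in all 16 channels. Among the 21 expressed in endometrium only, SLC26A7, SLC24A2, SLC2A10, SLC36A2 and SLC25A21 were well above background in no channel of blood. Averaged over the 4 cows, the lower bound of endometrium over blood was 1.31-fold for SLC26A7 and 1.34-fold for SLC24A2. It was 1.21-fold for SLC36A2 and 1.20-fold for SLC25A21. No bound is given for SLC2A10, whose value differed between normalizations. These genes passed the filter through endometrium alone, which set the direction, and the bounds are not met in each cow. In the log2 values that the authors deposited, animals 1 to 4 had ratios of -0.76, 2.95, 4.15 and -0.71 for SLC24A2. They were 3.21, 1.04, 5.84 and -0.04 for SLC26A7, 0.14, 0.35, 3.30 and 3.00 for SLC36A2 and 2.80, 0.25, 4.67 and -0.12 for SLC25A21. The bounds are set by the dimmest probes that were well above background on each array, and are open to dye bias in animal 3. The largest measured ratios among the 21 were those of the fructose transporter SLC2A5 (1.31), the phosphate transporter SLC34A2 (0.99) and the zinc importer SLC39A8 (0.90). All 21 passed the filter through endometrium alone, and the 7 in blood only through blood alone, which favors those directions. A dimmer probe of SLC34A2, well above background in 2 channels of endometrium and 0 of blood, gave 0.02. The 7 expressed in blood only, among them the glucose transporter SLC5A1, had ratios between -0.37 and -0.03, and between -2.28 and -0.21 in the log2 values that the authors deposited, where that of SLC5A1 was -1.72.

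Differential expression was tested with limma over the ratios of the 4 animals, with Benjamini-Hochberg adjustment over the 16653 probes tested. No member was called at an adjusted p of 0.05 and a fold change over 2, where 0.0661% of all probes were, and the lowest adjusted p among members was 0.158. At an unadjusted p of 0.05 and the same fold change, 14 members were higher in endometrium, which is 7.33% of the 191 against 5.28% of all probes, and 5 were higher in blood, which is 2.62% against 5.11%, and 10.4% of all probes passed in either direction. The median ratio of the members was -0.01, beside -0.02 for all probes. In 4 of 4 animals, 22 members were higher in endometrium (11.5% against 10.2% of all probes) and 18 were higher in blood (9.42% against 14.7%). Levels of the 2 tissues did not overlap for 5 members higher in endometrium (2.62% against 2.41%) and for 4 higher in blood (2.09% against 3.03%). These shares lay near those of all probes, other than the smaller share of members higher in blood, and no difference between shares was tested. The unadjusted counts without 1 animal were 7 and 3 without animal 1, 14 and 7 without animal 2, 8 and 2 without animal 3, and 17 and 11 without animal 4. Over all 16653 probes the same counts were 778 and 834, 785 and 653, 521 and 395, and 1024 and 1234.

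In the log2 values that the authors deposited, 4 members passed the adjusted test at the same thresholds, all higher in endometrium: SLCO2B1, SLC4A4, SLC27A2 and SLC1A1, where 1.35% of all probes passed. At unadjusted p, 21 members were higher in endometrium there and 8 in blood, against 7.98% and 8.05% of all probes. That table was corrected for background without the added offset, and low signals are spread more widely in it. The signs of 182 of the 191 ratios were equal in both sets of values. The ratio was larger in size in the value table for 85 of the 95 members with the lower mean level and for 79 of the 96 with the higher.

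**Figure D1:**
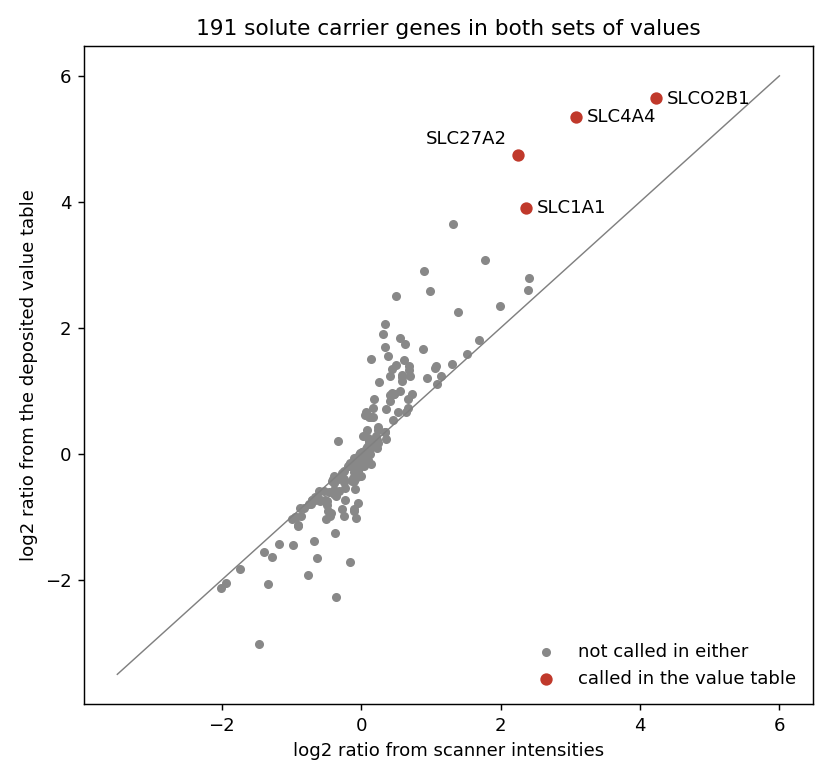
Log2 ratios of endometrium over blood for the 191 solute carrier genes tested, from the scanner intensities (x axis) and from the deposited value table (y axis), with the line of equality. The 4 genes called in the value table, in red, lie highest on both axes apart from SLC44A4 and SLC29A1 on the x axis.

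SLCO2B1, an uptake carrier of organic anions such as steroid sulfates, had the highest ratio of all members. It read 14.80, 9.21, 11.13 and 10.34 in endometrium of animals 1 to 4 and 8.60, 6.45, 7.19 and 6.31 in blood. Every endometrial level lay above every blood level. The ratios were 6.2, 2.76, 3.94 and 4.03, with a mean of 4.23 ± 0.57 (SE, n = 4) or 18.8-fold, and the adjusted p from limma was 0.158. In the value table the ratios were 6.52, 4.65, 5.68 and 5.72, and the mean of 5.64 passed the limma test with an adjusted p of 0.00733. Without animal 1 the mean of the scanner values was 3.58. SLCO2B1 was also well above background in all 8 channels of both tissues. The study names this gene among those of the same arrays, so its choice was not independent of these values.

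SLC4A4, a sodium and bicarbonate cotransporter of epithelia, came next. It read 9.26, 8.14, 12.07 and 8.93 in endometrium and 6.57, 6.44, 7.00 and 6.04 in blood, again without overlap between tissues. Its mean ratio was 3.08 ± 0.56 (SE, n = 4), with an adjusted p from limma of 0.242, and 5.35 in the value table, with an adjusted p from limma of 0.0215. Blood was well above background in 6 of 8 channels.

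SLC44A4, a choline transporter-like protein, read 10.19, 8.79, 13.53 and 9.68 in endometrium and 8.34, 7.56, 9.28 and 7.36 in blood. Endometrium exceeded blood in each of the 4 cows, by 2.41 ± 0.52 (SE, n = 4; adjusted p 0.262 from limma), though the highest blood level, in animal 3, lay above the lowest endometrial level. The other probe of this gene was dimmer and gave 0.42.

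SLC1A1, a high-affinity glutamate carrier, read 7.51, 7.74, 13.22 and 9.0 in endometrium and 6.45, 6.28, 8.95 and 6.33 in blood. The levels of animal 3 stood above those of the other cows in both tissues. Its ratio was 2.37 ± 0.57 (SE, n = 4; adjusted p 0.262 from limma), and 3.91 in the value table with an adjusted p from limma of 0.0186.

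**Figure D2:**
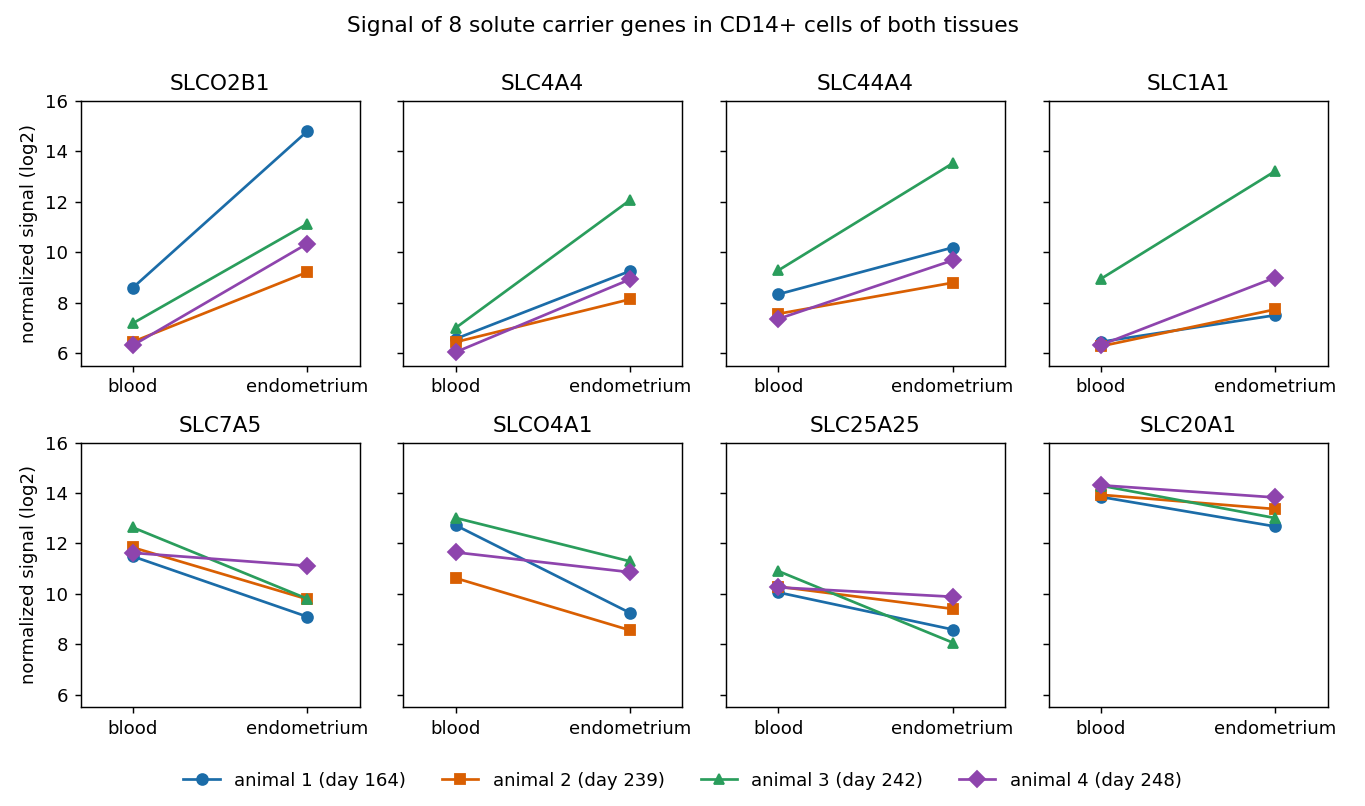
Normalized log2 signal of 8 solute carrier genes in blood and endometrium, 1 line for each animal. The upper row shows SLCO2B1, SLC4A4, SLC44A4 and SLC1A1, higher in endometrium in 4 of 4 animals, and the lower row SLC7A5, SLCO4A1, SLC25A25 and SLC20A1, higher in blood in 4 of 4 animals.

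The group of organic anion, organic cation and bile acid carriers also held the lowest ratio of all members. SLCO4A1, which carries thyroid hormones and prostaglandins, read 9.25, 8.56, 11.29 and 10.86 in endometrium and 12.72, 10.62, 13.01 and 11.65 in blood. It was higher in blood in each cow while the tissues overlapped between cows, with a ratio of -2.01 ± 0.46 (SE, n = 4; adjusted p 0.262 from limma). Of the 15 members of this group tested, 10 were above 0 and 5 below, with a median of 0.44. SLC21A2, an older name of SLCO2A1, was counted by its number as another family and is not among the 15. The SLC22 family made up 8 of the 15 with 6 above 0, such as the carnitine transporter SLC22A5 (1.15), for which animal 3 alone gave a ratio over 1, of 3.70. SLC10A1, a bile acid carrier of hepatocytes, gave a negative ratio in each cow, with a mean of -0.49.

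Of the 22 amino acid and peptide carriers tested, 10 were above 0 and 12 below, with a median of -0.02. At unadjusted p 3 were higher in endometrium (13.6%, against 5.28% of all probes) and 1 was higher in blood (4.55% against 5.11%). The former were SLC1A1, its relative SLC1A3 and the light chain SLC7A8. SLC1A3 read 8.96, 7.26, 10.99 and 5.99 in endometrium and 6.62, 6.08, 7.30 and 6.10 in blood, so that animal 4 showed no signal above the end of the scale in either tissue. Its mean ratio was 1.78 and its adjusted p from limma 0.297. SLC7A8 had ratios of 2.18, 0.92, 2.38 and 0.06 and a mean of 1.39.

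SLC7A5, the light chain that exchanges large neutral amino acids for glutamine, was the carrier of this group highest in blood. It read 9.09, 9.79, 9.81 and 11.11 in endometrium and 11.48, 11.84, 12.63 and 11.62 in blood. Every blood level lay above every endometrial level. The ratio was -1.94 ± 0.42 (SE, n = 4; adjusted p 0.262 from limma). Its heavy chain SLC3A2 was higher in blood in 4 of 4 animals too, by less, with ratios of -0.20, -1.17, -0.91 and -0.36 and a mean of -0.66. The glutamine and neutral amino acid exchanger SLC1A5 had ratios of -2.45, -0.49, -1.0 and -0.02 and a mean of -0.99, with -1.32 without animal 4 and -0.50 without animal 1. The arginine carrier listed as SLC7A3 had a mean of -0.86, but its gene identifier now carries another symbol, and its name is uncertain.

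The fatty acid, choline and acetyl-CoA group held 9 tested members with a median of 0.08. At unadjusted p 2 of them were higher in endometrium (22.2%, against 5.28% of all probes). Besides SLC44A4 this was SLC27A2, a very long-chain acyl-CoA synthetase and fatty acid transporter, which the study names as well. It read 9.37, 8.02, 11.26 and 6.16 in endometrium and 6.45, 6.16, 7.23 and 5.99 in blood. Animal 4 was near the end of the scale in both tissues, and 6 of 8 channels of endometrium and 4 of 8 of blood were well above background. The ratio was 2.25 ± 0.64 (SE, n = 4; adjusted p 0.262 from limma). In the value table the ratios were 4.77, 5.96, 5.62 and 2.63, with a mean of 4.75 and an adjusted p from limma of 0.0211.

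Of the 12 SLC39 zinc importers tested, 8 were above 0 and 4 below, 4 had positive ratios in every cow and none had negative ratios in every cow. All 4 SLC30 exporters tested were below 0, and SLC30A6 only just, at -0.02. Of all 16653 probes, 7895 were above 0. In 4 of 4 animals, 10.2% of all probes were higher in endometrium and 14.7% were higher in blood. SLC39A8, positive in every cow, passed the filter through endometrium alone. The difference between the families was not tested, and the families were set side by side after their values were seen. Over the whole group of zinc, iron, copper, magnesium and heme carriers, 3 of 19 were higher in endometrium at unadjusted p and 1 was higher in blood. These were 15.8% and 5.26%, against 5.28% and 5.11% of all probes, and the median was 0.04.

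SLC39A1, an importer of the plasma membrane, read 12.87, 10.43, 12.91 and 10.29 in endometrium and 11.20, 9.25, 10.02 and 9.98 in blood, a ratio of 1.51 ± 0.45 (SE, n = 4; adjusted p 0.267 from limma). SLC39A10, also of the plasma membrane, had ratios of 1.5, 1.42, 1.98 and 0.30 and a mean of 1.3. SLC39A7, which releases zinc from the endoplasmic reticulum, read 14.53, 14.19, 14.58 and 14.11 in endometrium and 13.16, 13.13, 12.92 and 13.86 in blood. Its tissues did not overlap, and its mean ratio was 1.08 ± 0.30 (SE, n = 4; adjusted p 0.262 from limma). SLC39A8 had positive ratios in all 4 cows and a mean of 0.90, most of it from animal 3, at 2.65 against 0.10, 0.68 and 0.16. In the value table its ratios were 0.16, 4.27, 5.87 and 1.3. Their mean of 2.90 passed the unadjusted threshold, with an adjusted p from limma of 0.234. SLC39A8 passed the filter through endometrium alone, with 6 channels there and 3 of blood well above background. The filter thus favored its direction, and this pass lends that direction no weight. The lowest importer was SLC39A13, a carrier of intracellular vesicles, with ratios of 0.38, -0.78, -2.49 and -2.21.

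The main plasma membrane exporter of zinc, SLC30A1, read 9.45, 9.94, 9.10 and 10.63 in endometrium and 11.06, 11.40, 13.01 and 10.59 in blood. It was higher in blood in the first 3 animals and equal in animal 4, at 0.03, with a mean of -1.74 ± 0.64 (SE, n = 4; adjusted p 0.304 from limma).

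**Figure D3:**
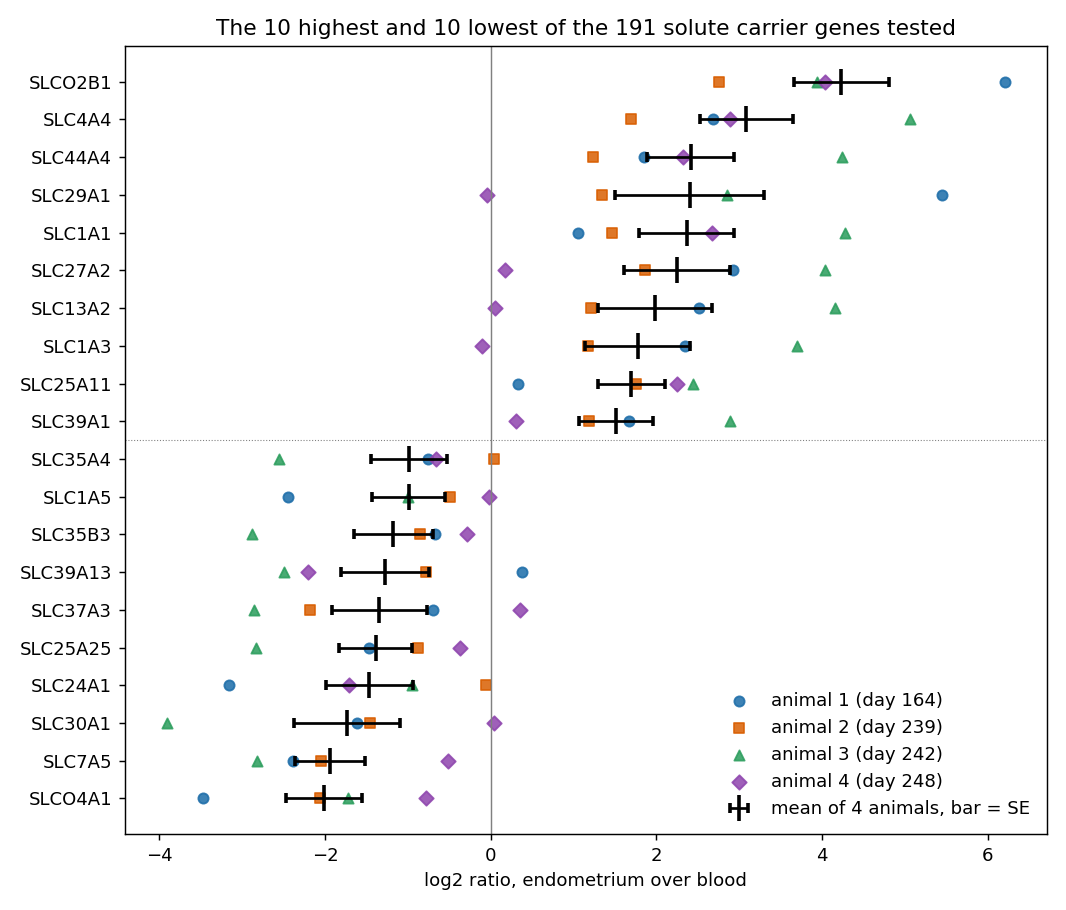
Log2 ratio of endometrium over blood for the 10 highest and the 10 lowest of the 191 solute carrier genes tested, 1 point for each animal, with the mean and its SE over 4 animals. Animal 3 gave the highest ratio for 8 of the 10 genes in the upper part, and animal 4 lay near 0 for SLC29A1, SLC27A2, SLC13A2 and SLC1A3.

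Among the 9 bicarbonate, chloride and sulfate carriers tested, SLC4A4 was the only one past the unadjusted threshold. Counting it, 4 had positive ratios in every cow (44.4%, against 10.2% of all probes). The others were the sulfate transporter SLC26A2 (0.68), the anion exchangers SLC4A3 (0.26) and SLC26A7. SLC26A7 read 7.46 in endometrium of animal 3 and 6.4, 6.04 and 6.0 in the other cows, with 5.91 to 6.0 in blood, so that its sign in animals 2 and 4 rests on signals at the end of the scale. The median of the group was 0.15.

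All 5 nucleoside carriers tested were above 0, with a median of 0.41. SLC29A1, the equilibrative nucleoside transporter of the plasma membrane, read 13.90, 9.70, 12.07 and 8.22 in endometrium and 8.45, 8.35, 9.22 and 8.26 in blood. Blood levels were alike over the cows, whereas endometrial levels spread from 8.22 to 13.90. The ratios were 5.45, 1.35, 2.85 and -0.04 and the mean was 2.40 ± 0.90 (SE, n = 4; adjusted p 0.309 from limma), or 1.38 without animal 1. SLC29A3, its counterpart in lysosomes, had a mean of 0.11, which became -0.08 without animal 1.

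Of 12 monocarboxylate and dicarboxylate carriers, SLC13A2, a sodium-dependent carrier of citrate and succinate, alone passed the unadjusted threshold. It read 10.05, 8.45, 12.73 and 7.08 in endometrium and 7.54, 7.24, 8.57 and 7.03 in blood. The ratio was 1.98 ± 0.69 (SE, n = 4; adjusted p 0.289 from limma), with 0.05 in animal 4. The lactate transporter SLC16A1 gave -0.28. The median of this group was 0.05.

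Of 19 sugar carriers tested, none passed the unadjusted threshold in either direction in the scanner values, and the median was -0.03. In the value table SLC2A5, with a mean ratio of 3.65, and SLC37A3, with -2.07, passed it, at adjusted p from limma of 0.178 and 0.274. SLC2A5 read 8.90, 6.24, 8.80 and 6.22 in endometrium and 6.31, 6.09, 6.45 and 6.06 in blood. Only animals 1 and 3 were thus clear of the end of the scale. It passed the filter through endometrium alone, with 7 channels there and 2 of blood well above background. The filter thus favored its direction, and its pass in the value table lends that direction no weight. All 4 members of the sugar-phosphate exchanger family SLC37 were below 0. Of these SLC37A3 read 6.42, 9.51, 6.21 and 12.09 in endometrium and 7.12, 11.68, 9.06 and 11.73 in blood, and differed more between cows than between tissues. Its mean ratio was -1.34, and its dimmer probe gave -1.09.

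The mitochondrial carriers were the largest family, with 26 of 27 members tested, 8 above 0 and 18 below. Their median of -0.27 was the lowest of the groups. Only 1 passed the unadjusted threshold in each direction. SLC25A11, which exchanges oxoglutarate for malate, read 11.67, 10.88, 11.87 and 11.42 in endometrium and 11.34, 9.13, 9.43 and 9.18 in blood, with a ratio of 1.69 ± 0.41 (SE, n = 4; adjusted p 0.262 from limma). Endometrial levels were alike in the 4 cows, while blood of animal 1 stood above blood of the other cows.
SLC25A25, a calcium-regulated carrier of ATP-Mg and phosphate, read 8.59, 9.41, 8.07 and 9.88 in endometrium and 10.06, 10.29, 10.90 and 10.26 in blood. Its tissues did not overlap, and the ratio was -1.39 ± 0.44 (SE, n = 4; adjusted p 0.275 from limma), or -0.91 without animal 3. A dimmer probe of the same transcript gave -0.38.

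The phosphate transporter SLC20A1 read 12.67, 13.36, 13.01 and 13.82 in endometrium and 13.84, 13.93, 14.29 and 14.31 in blood. Every blood level lay above every endometrial level, though the ratio of -0.88 ± 0.25 (SE, n = 4; adjusted p 0.262 from limma) was less than 2-fold. Of 17 sodium-proton, sodium-calcium and cation-chloride carriers, with a median of 0.00, the sodium, calcium and potassium exchanger SLC24A1 alone passed the unadjusted threshold. It read 6.62, 6.79, 6.0 and 7.09 in endometrium and 9.78, 6.85, 6.95 and 8.80 in blood, so that the tissues were furthest apart in animals 1 and 4, with a mean of -1.47, or -0.90 without animal 1. In the value table its ratios were -4.86, -0.20, -4.36 and -2.63, furthest apart in animals 1 and 3, with a mean of -3.01 and an adjusted p from limma of 0.178. The sodium and calcium exchanger SLC8A3, which the study names, read 6.69, 6.91, 6.82 and 6.39 in endometrium and 6.32, 6.39, 6.17 and 6.42 in blood, close to the end of the scale in both. Its ratio was 0.38 ± 0.23 (SE, n = 4; adjusted p 0.46 from limma). In the value table the mean was 1.56, with 1.77, 1.88, 2.60 and -0.02 in animals 1 to 4 and an adjusted p from limma of 0.258. The other probe named SLC8A3 was well above background in no channel.

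Among 12 carriers of neurotransmitters and synaptic vesicles the median was -0.16. SLC17A5, the lysosomal exporter of sialic acid, had ratios of 0.77, 0.89, 1.90 and 0.74 and a mean of 1.07 ± 0.28 (SE, n = 4; adjusted p 0.262 from limma). Of 14 nucleotide sugar carriers with a median of -0.07 none passed the unadjusted threshold, and the lowest were SLC35B3 (-1.18) and SLC35A4 (-0.98), both lowest in animal 3. All 4 vitamin carriers tested lay below 0, with a median of -0.25, and the vitamin C transporter SLC23A1 had a mean of -0.44. The prostaglandin transporter SLC21A2, an older name of SLCO2A1, had a ratio of 0.23. A dimmer probe of the same transcript gave 0.67, with 8 channels of endometrium and 1 of blood well above background.

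**Figure D4:**
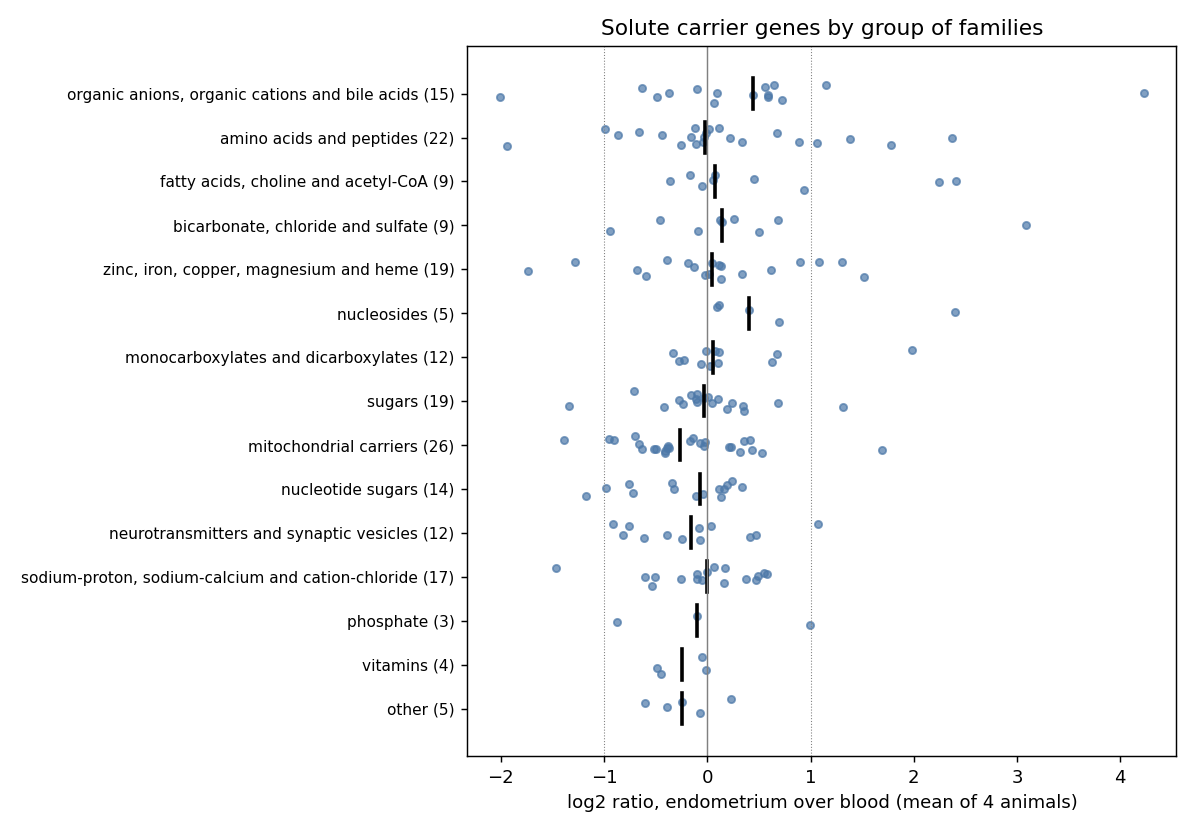
Log2 ratio of endometrium over blood for each of the 191 solute carrier genes tested, by the 15 groups of substrates, with the median of each group and dotted lines at a 2-fold difference. Medians ran from -0.27 for the mitochondrial carriers to 0.44 for the organic ion carriers.

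The members varied more between animals than between arrays. Over the 191 members, the correlation between the 2 arrays of a cow ranged from 0.976 to 0.996, as a description of members that share arrays. The SD over the 4 animals was above the size of the mean ratio for 150 members (78.5%, against 75.5% of all probes). Animal 3 gave the highest ratio for 12 of the 14 members higher in endometrium at unadjusted p (85.7%), against 55.2% of all such probes, and SLCO2B1 and SLC29A1 were highest in animal 1. Animal 3 was the cow without exchanged dyes and had the highest epithelial markers in both tissues. In the other cows, whose 2 arrays carried opposite dyes, the arrays correlated at 0.976 to 0.986, which describes those cows only. When dye and slide were terms of the model over all 8 arrays, the ratio was 4.29 for SLCO2B1, 3.14 for SLC4A4, 2.41 for SLC44A4 and 2.39 for SLC1A1. These are means over the cows and do not give the ratios of animal 3 apart from dye. The part of dye and of the epithelial markers in the ratios of animal 3 was not tested. Animal 1 had the highest stromal markers in both tissues, and their part in its ratios was not tested either.

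Animal 1 was over 2-fold above every other cow in both tissues for 10 members (5.24%, against 3.21% of all probes). These were SLC15A3, SLC26A11, SLC2A6, SLC31A2, SLC37A2, SLC38A6, SLC39A10, SLC7A7, SLC8A1 and SLCO2B1. Animal 3 was so for SLC13A2 and SLC1A1, and animals 2 and 4 for no member. SLC7A7, which pairs with SLC3A2 to export cationic amino acids, read 12.86, 9.75, 7.73 and 9.96 in endometrium and 12.31, 8.16, 8.58 and 8.55 in blood, with a mean ratio of 0.68. SLC2A6, of the glucose transporter family, read 11.70, 10.00, 8.76 and 9.2 in endometrium and 14.15, 8.64, 9.74 and 8.83 in blood. Its ratio was -0.42, and 0.25 without animal 1. For both, levels differed more between cows than between tissues.

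Other carriers known from monocytes and macrophages did not pass the unadjusted threshold either. SLC37A2, a sugar-phosphate exchanger of macrophages, had a ratio of -0.10, and 0.50 without animal 3. SLC15A3, which carries histidine and peptides out of lysosomes, had a ratio of -0.43, with its highest levels, 7.67 in endometrium and 9.13 in blood, in animal 1. The mitochondrial iron importer SLC25A37 had a ratio of -0.17. SLC7A11 was not well above background, and SLC48A1 was not analysed here.

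**Figure D5:**
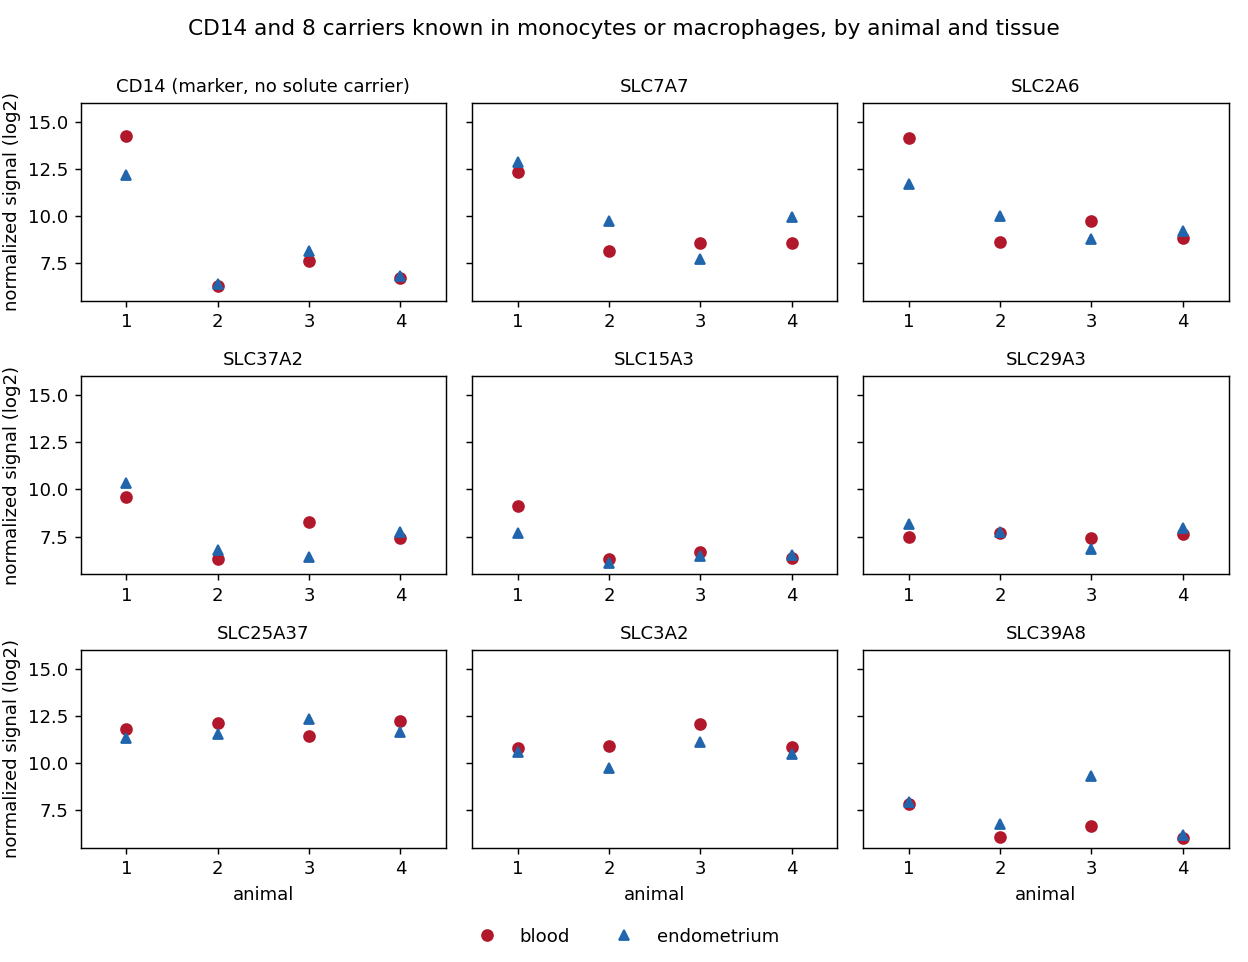
Normalized log2 signal of CD14 and 8 carriers known from monocytes and macrophages in endometrium and blood, by animal. CD14, SLC7A7, SLC2A6, SLC37A2 and SLC15A3 were highest in animal 1 in both tissues.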

How the data were processed

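RNA of sorted CD14+ cells was amplified and labeled with 2 dyes, and both tissues of a cow were hybridized together on Agilent bovine oligonucleotide arrays. The authors deposited scanner files of Agilent Feature Extraction (version 10.5.1.1 per the file headers, 9.5 per the submitters' notes) with spot intensities, and a table of log2 values, one column for each sample. Processed signals were put on the values of each column of that table by rank and compared with that column as means over the spots of a probe. At a tolerance of 0.001, 100% of probes were equal in a channel of the scanner file listed under the animal's other technical replicate. In the file listed under the sample itself at most 0.689% of probes were equal. Spot by spot, 40.9 to 41.0% were equal in the matched file. Scanner files were therefore assigned through the table. As listed, the tissues of 3 animals would be exchanged.

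Median spot intensities were corrected for background with normexp and an offset of 50, normalized within arrays by loess with control spots at weight 0, and quantile normalized over the 16 channels with limma 3.58.1 in R 4.3.3. After removal of outlier spots (3 to 20 on each array), replicate spots were averaged. Between 65.2 and 82.9% of probes were well above background in endometrium and between 68.4 and 76.5% in blood, and no spot was saturated. A probe was tested when 4 or more of the 8 channels of a tissue were well above background. The 2 arrays of an animal were averaged, and limma was fitted to the 4 ratios, with Benjamini-Hochberg adjustment over all probes tested. Tissues were paired by the animal number in the labels, and deviations of the paired samples from their tissue means correlated at 0.618, 0.364, 0.209 and 0.465 in animals 1 to 4. The fit was tested on simulated data.

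The members, gene groups and marker lists were chosen with earlier results of these data known. Named genes were those the study names (SLCO2B1, SLC27A2 and SLC8A3), the 10 members with the highest and the 10 with the lowest ratio, the member with the smallest p of each group and a fixed list known from monocytes and macrophages. Others were named after their values were seen. Of the 248 members, 221 were matched by accession or gene identifier to RefSeq genes of ARS-UCD2.0, 6 of them with another symbol (SLC10A6, SLC15A2, SLC26A1, SLC4A10, SLC6A19 and SLC7A3). Alternatives were the value table, the processed signal, no background correction, loess alone, other filters on dim probes, unpaired tissues, the 8 arrays with dye, slide and animal terms, each technical replicate, each animal left out, the analysis of variance of the methods and the mean of all probes of a gene. Members widened by symbols in another field were added after seeing the data.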

Additional observations from a re-analysis of the deposited data

Results flagged for a closer look

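In 3 of the 35 named carriers tested, the ratio of 1 animal stood apart from the other 3 by Dixon's criterion, which chance meets in about 1 in 20 groups. The 3 flags lie near the number that chance gives. Each time this was animal 3, the cow whose 2 arrays carried the same dye orientation. When dye and slide were terms of the model over all 8 arrays, the mean ratio was 1.07 for SLC17A5, -0.17 for SLC25A37 and -0.14 for SLC37A2. These means over the cows do not give the ratio of animal 3 apart from dye, and a part of dye in it was not tested. The ratio of the sialic acid exporter SLC17A5 was 1.90 in animal 3 and 0.74 to 0.89 in the other cows, and its mean without animal 3 was 0.80. The ratio of the mitochondrial iron importer SLC25A37 was 0.92 in animal 3 and -0.57 to -0.44 in the others, with a mean of -0.53 without animal 3. The ratio of the sugar-phosphate exchanger SLC37A2 was -1.89 in animal 3 and 0.32 to 0.71 in the others, with a mean of 0.50 without animal 3.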

How the results depend on the processing

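No member was called in the paired fit to scanner intensities, and 11 of all probes were. The value table and the processed signal gave 4 members (SLCO2B1, SLC4A4, SLC27A2 and SLC1A1) and 224 of all probes. At unadjusted p, 8 members and 1341 of all probes were higher in blood there. Without background correction 1 member and 50 probes were called, and with all 8 channels of a tissue required, 1 and 44, the member being SLCO2B1 in both. Higher in blood at unadjusted p were 8 members and 1118 probes in the former. In the latter these were 8 of 149 members and 956 of 13536 probes. Loess alone gave 3 members and 585 of all probes higher in blood, and no filter on dim probes 3 of 248 members and 660 of 21475 probes. Each gave 5 probes called. The 8 arrays with dye, slide and a random animal block gave 4 members (SLC1A1, SLC44A4, SLC4A4 and SLCO2B1) and 278 probes. At unadjusted p, 9 members and 1116 of all probes were higher in blood there. Technical replicate 1 gave 20 probes called and technical replicate 2 gave 5. The analysis of variance gave 8 members higher in endometrium, 2 higher in blood and 0 probes called after adjustment, with 387 and 300 of all probes at unadjusted p. Without the replicate block that pairs the tissues of an animal, 6 members were higher in endometrium and 4 probes were called, with 517 and 607 of all probes at unadjusted p. Leaving out each animal gave 7 to 17 members higher in endometrium, 2 to 11 higher in blood and 0 probes called each time. Of all probes, 521 to 1024 were higher in endometrium and 395 to 1234 in blood at unadjusted p in these fits. The cause of these shifts was not tested.

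Of 555 ratios of named genes under the alternatives, 536 kept their direction and side of the adjusted threshold. Another 14 passed it only under the alternative, and 5 changed sign. No member passed that threshold in the paired fit to scanner intensities. None could therefore fall below it, and the 536 do not measure stability. Counts at unadjusted p moved with the setting, as given above. SLC37A2 became 0.0214 with loess alone and 0.0243 with technical replicate 2, and ran from -0.37 to 0.50 when animals were left out, positive without animal 3. In the same way SLC29A3 ran from -0.0835 to 0.34 and SLC2A6 from -1.02 to 0.25, both changing sign without animal 1. Signals near background limit the ratios of dim carriers.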

Other observations

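Other transporters on the same arrays were examined as well. Of 25 ABC transporters tested, none passed the unadjusted threshold in limma, and the median ratio was 0.00. Of 5 aquaporins tested, AQP11 alone was higher in endometrium at unadjusted p, with a ratio of 2.94. None of 5 sodium pump subunits tested passed that threshold, with a median of 0.03.

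A further 29 solute carrier genes were named only in another annotation field, and 26 of them were tested. None passed the unadjusted threshold, and their median was -0.19. They included the iron transporter SLC11A2, with a ratio of 0.45, and the lysosomal histidine transporter SLC15A4, with a ratio of -0.07.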
